A study of Rattus norvegicus with 16 samples.

Results

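This account concerns the difference between amygdala and dorsal raphe in low responder rats, over all mature microRNAs (miRNAs) counted by small RNA sequencing. Low responders are a rat line bred for low locomotor activity in a new environment, and the high responders of the same study are the line bred for high activity. The 8 low responder libraries, 4 of amygdala and 4 of dorsal raphe, are those whose labels give this line, out of 16 libraries in all. The other 8 are 4 of each region from high responders. All tissue came from rats of 60 days, and the labels name no treatment, sex, surgery or pooling of animals. Within a group the libraries are numbered 1 to 4, and the labels do not say that each number is a separate rat, so the p-values below measure the spread between these samples. All 722 miRNAs listed are members of the comparison, and 639 of them passed the filter on low counts and were tested.

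A miRNA is a short RNA that pairs, mainly through its seed, with messenger RNAs and lowers their translation and stability. The seed is made of bases 2 to 8 counted from the 5′ end, and miRNAs with the same seed can bind the same targets. Many miRNAs are cut from an intron of a host gene or from a transcript that carries several hairpins, and each hairpin can give a 5p and a 3p strand, its arms. The dorsal raphe is the brainstem nucleus that holds many of the brain's serotonin neurons, and the amygdala is a forebrain structure for fear and emotional learning.

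The mature sequences of the miRNAs on which the results turn are printed here 5′ to 3′, with the seed in capitals. They were taken from the RefSeq annotation of the GRCr8 rat assembly, which held a sequence for 569 of the 639 miRNAs tested and for 84 of the 90 that differed. The first set was higher in amygdala, and it is shown for the 2 shared seeds in it (miR-221-3p with miR-222-3p, and miR-132-3p with miR-212-3p) and for the 3 miRNAs of the serotonin 2C receptor gene, whose seeds all differ.
miR-221-3p: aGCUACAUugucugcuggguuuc
miR-222-3p: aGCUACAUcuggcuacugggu
miR-132-3p: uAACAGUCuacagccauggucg
miR-212-3p: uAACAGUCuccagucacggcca
miR-128-3p: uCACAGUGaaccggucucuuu
miR-139-5p: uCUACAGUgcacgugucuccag
miR-1298: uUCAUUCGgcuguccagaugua
miR-448-3p: uUGCAUAUguaggauguccca
miR-1912-3p: cACAGAACaugcagugaga

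The second set was lower in amygdala. It shows 2 miRNAs of the calcitonin receptor gene, 2 of the imprinted Gnas locus, 2 of a sensory cell cluster, miR-34a-5p, and miR-10a-5p beside miR-10b-5p.
miR-653-5p: uUGAAACAuucucuacugaac
miR-489-3p: aUGACAUCacauauauggcagc
miR-298-5p: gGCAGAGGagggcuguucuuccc
miR-296-5p: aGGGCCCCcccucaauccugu
miR-183-5p: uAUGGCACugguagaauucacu
miR-96-5p: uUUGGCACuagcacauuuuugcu
miR-34a-5p: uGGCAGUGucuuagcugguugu
miR-10a-5p: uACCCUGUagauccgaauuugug
miR-10b-5p: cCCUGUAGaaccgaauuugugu

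Aligned without gaps, miR-10a-5p and miR-10b-5p differ at 1 of 21 shared bases, but the annotated miR-10b-5p starts 2 bases further in, so that the seeds as printed differ. How reads that match both were counted is not given in the sources used here, and the split of counts between these miRNAs is uncertain. The last pair is shown because it comes from opposite strands of the same stretch of the Aatk gene. A run of 20 bases of miR-3065-5p is the reverse complement of miR-338-3p.
miR-3065-5p: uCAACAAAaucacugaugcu
miR-338-3p: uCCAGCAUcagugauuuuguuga

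The low responder libraries held 2096188 to 8134915 counts. Levels are counts per 1000000 (CPM) of the library's total scaled by edgeR's TMM factor, and wherever a set of 4 values is given it runs from replicate 1 to replicate 4. A level of 3 counts, the limit that a count of 0 allows, was 0.396 to 0.688 CPM in 7 libraries and 2.40 CPM in dorsal raphe replicate 4, a limit that covers counting error only. That library stands apart. It had the fewest counts and a TMM factor of 0.596 against 0.931 to 1.17 in the other 7, and its root mean square deviation from its group mean was 1.03 on the log2 scale, against 0.306 to 0.670 in the others, the 0.670 being amygdala replicate 4. The first principal component of the 8 libraries held 41.7% of the variance and the second 35.4%, and dorsal raphe replicate 4 lay at the far end of both. Results that rest on it are therefore given with and without it. Neuron-enriched miRNAs were abundant in every library of both regions, with 148967 to 260130 CPM summed over the list of 18 (148967 to 243823 CPM without dorsal raphe replicate 4). Most of that sum came from miR-9a-5p, which held on average 15.6% of the counts in amygdala and 11.5% in dorsal raphe. The Hox-cluster miRNAs, which mark hindbrain and spinal cord, summed to 423 to 433 CPM in dorsal raphe replicates 1 to 3 and 3935 CPM in replicate 4, against 36.2 to 144 CPM in amygdala. In dorsal raphe nearly all of this came from miR-10b-5p and miR-10a-5p.

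In amygdala 23 miRNAs were higher and 67 lower than in dorsal raphe, at an adjusted p under 0.05 in edgeR's quasi-likelihood test over the 639 tested (14.1% called, 3.6% as higher and 10.5% as lower). The difference was over 2-fold for 22 of the 23 and for 60 of the 67. In 21 of the 23 and 56 of the 67 no amygdala library overlapped a dorsal raphe library, and over all 639 tested this held for 123 (19.2%), 39 higher (6.1%) and 84 lower (13.1%). The median log2 fold change of all tested was -0.12, and it was 0.15 without dorsal raphe replicate 4. A set of 45 miRNAs, 18 higher and 27 lower, was called in the fit of all libraries and also in each of the 8 fits that leave out 1 low responder library (7.04% of those tested, 2.82% higher and 4.23% lower). These are called the stable set below, and most of what follows is about them.

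**Figure D1:**
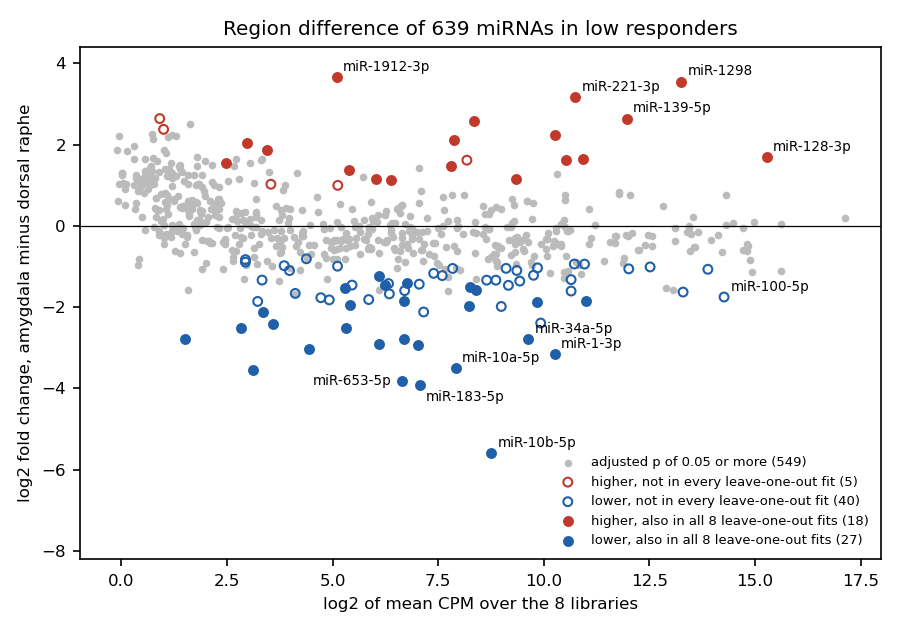
Log2 fold change between amygdala and dorsal raphe in low responders against the log2 of the mean CPM over the 8 libraries, with 1 point for each of the 639 miRNAs tested. Filled points are the 18 higher and 27 lower miRNAs called in every leave-one-out fit too, open circles the other called miRNAs, and grey points those not called. miR-128-3p is the called miRNA furthest to the right among those that were higher, and miR-10b-5p is the lowest point.

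miRNAs higher in amygdala included the pair miR-221 and miR-222, the pair miR-132 and miR-212, miR-128-3p and miR-139-5p, all without overlap between the regions, and miRNAs of the serotonin 2C receptor gene. miR-222-3p, which is transcribed together with miR-221 and shares its seed, stood at 1721, 1853, 2322 and 2286 CPM in amygdala and 437, 394, 398 and 497 CPM in dorsal raphe. The lowest amygdala library was thus more than 3 times the highest dorsal raphe library, and edgeR gave a log2 fold change of 2.25 (SE 0.26, adjusted p = 2.99e-05). For miR-221-3p the levels were 1757, 2612, 3624 and 4383 CPM in amygdala and 561, 368, 336 and 118 CPM in dorsal raphe. The regions did not overlap, and the miRNA was 8.93-fold higher in amygdala (log2 3.16, SE 0.55, adjusted p = 0.000809). The other arms lay in the same direction: miR-221-5p was 4.34-fold higher (adjusted p = 0.000292), while miR-222-5p, with a log2 fold change of 1.56, missed the threshold in edgeR (adjusted p = 0.0597).

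miR-132 and miR-212, a pair from 1 transcript that is induced in active neurons through the transcription factor CREB, rose in all 4 arms. miR-132-3p stood at 1958, 2099, 2189 and 2651 CPM in amygdala and 733, 745, 652 and 753 CPM in dorsal raphe. All 4 amygdala libraries lay above all 4 dorsal raphe libraries, by 3.09-fold in edgeR's fit (log2 1.63, SE 0.25, adjusted p = 0.000281). miR-212-3p, with the same seed, was scarcer, at 287, 303, 319 and 403 CPM in amygdala and 127, 147, 103 and 91.3 CPM in dorsal raphe. It also separated the regions without overlap (log2 1.48, SE 0.34, adjusted p = 0.00662). miR-132-5p (1.64) and miR-212-5p (1.15) had log2 fold changes of like size, and all 4 arms are in the stable set.

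miR-128-3p, a neuron-enriched miRNA encoded in both the R3hdm1 and the Arpp21 gene, was the most abundant of all called miRNAs and held 6.25% ± 1.05 of the counts in amygdala against 1.58% ± 0.320 in dorsal raphe (SD, n = 4 each). Its scaled levels were 64218, 45984, 63384 and 68533 CPM in amygdala and 15482, 12803, 13018 and 33492 CPM in dorsal raphe. Amygdala libraries were all higher, although dorsal raphe replicate 4 lay above the other 3 raphe libraries by more than 2-fold. That gap is on the TMM scale, where the factor of this library was 0.596. edgeR gave miR-128-3p a log2 fold change of 1.69 (SE 0.31, adjusted p = 0.00109), and 2.25 without that library. The 5p arm of the R3hdm1 hairpin, miR-128-1-5p, stood at 23.6, 13.8, 16.3 and 14.1 CPM in amygdala and 4.22, 3.84, 3.72 and 8.01 CPM in dorsal raphe. It rose by 1.86 on the log2 scale (adjusted p = 0.0015). The 5p arm of the Arpp21 hairpin, miR-128-2-5p, had 1.31 (adjusted p = 0.0851), and 2.21 without dorsal raphe replicate 4 (adjusted p = 0.000865).

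miR-139-5p lies within Pde2a, the gene of a phosphodiesterase that breaks down cyclic nucleotides. Its levels were 4646, 4418, 7281 and 11254 CPM in amygdala and 1351, 986, 1121 and 979 CPM in dorsal raphe. The regions were far apart, with amygdala 6.22-fold higher (log2 2.64, SE 0.32, adjusted p = 2.99e-05). In amygdala replicate 4 the level was the highest of all 8. The 3p arm had a log2 fold change of 1.42, short of the threshold in edgeR (adjusted p = 0.0525), and 2.47 without dorsal raphe replicate 4 (adjusted p = 9.84e-05). In bulk tissue a change in the share of cells of a type and a change in the RNA of each such cell cannot be told apart, here and in all results below.

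The Htr2c gene encodes the serotonin 2C receptor and carries several miRNA hairpins in its introns. Of the 7 tested miRNAs on its list 3 rose and 1 fell, with and without dorsal raphe replicate 4, and the median log2 fold change was 1.25. RefSeq also places miR-3552 within the gene (-0.69, adjusted p = 0.358), and with it the median of 8 is 0.60. miR-1298 stood at 8730.1, 38571, 23602 and 1092 CPM in amygdala and 904, 748, 1321 and 3186 CPM in dorsal raphe. In 3 amygdala libraries it was above every raphe library, and in amygdala replicate 4 it lay within the raphe range. edgeR gave a log2 fold change of 3.55 (SE 0.74, adjusted p = 0.00307), which was 4.28 without dorsal raphe replicate 4. For miR-1912-3p the levels were 31.2, 138, 79.0 and 7.92 CPM in amygdala and 6.87, 4.30, 5.87 and 1.60 CPM in dorsal raphe. Here the regions did not overlap, by a narrow margin between amygdala replicate 4 and dorsal raphe replicate 1 (log2 3.67, SE 0.67, adjusted p = 0.00111).

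miR-448-3p was likewise low in amygdala replicate 4, at 311, 1262, 629 and 42.3 CPM in amygdala and 71.8, 72.4, 84.1 and 147 CPM in dorsal raphe. Its amygdala replicate 4 was the lowest of all 8 libraries, and the log2 fold change of 2.59 (SE 0.65, adjusted p = 0.0127) dropped to 1.98 without amygdala replicate 2. This call was lost with limma-voom (1.82, adjusted p = 0.106) and with a replicate block (2.11, adjusted p = 0.135), and that of miR-1298 with the block (3.33, adjusted p = 0.0603). miR-764-3p of the same gene went the other way, at 8.94, 14.9, 11.3 and 5.42 CPM in amygdala and 26.7, 26.2, 19.2 and 13.6 CPM in dorsal raphe. Its regions touched, with dorsal raphe replicate 4 below amygdala replicate 2, and the log2 fold change was -1.10 (adjusted p = 0.0336). The epithelium of the choroid plexus is known for a high level of Htr2c, and its miRNAs miR-204 and miR-211 varied over the same libraries. All 4 arms were detected, with no marker at 0 in all libraries. Summed, they came to 2433, 9230, 6252 and 999 CPM in amygdala and to 2566, 2065, 2360 and 3827 CPM in dorsal raphe, highest in the amygdala libraries with most miR-1298 and lowest in amygdala replicate 4. None of the 4 passed the test (median log2 fold change 0.69). The miR-34 and miR-449 list holds miR-34b, miR-34c and miR-449, which are known from ciliated epithelia, and also miR-34a. Summed, it stood at 3892, 11764, 6023 and 626 CPM in amygdala and at 5003, 3471, 5032 and 4854 CPM in dorsal raphe. The part of choroid plexus and ciliated cells in the Htr2c result was not tested.

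**Figure D2:**
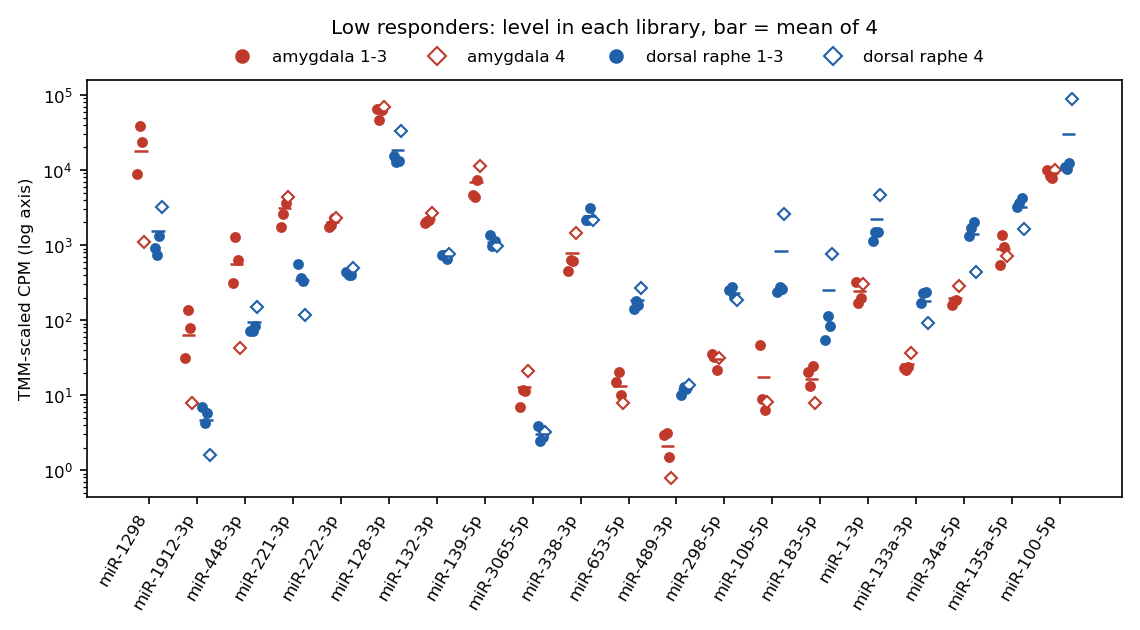
TMM-scaled CPM on a log axis for miRNAs described in the text, in each of the 4 amygdala (red) and 4 dorsal raphe (blue) libraries of low responders, with bars at the mean of 4. Open diamonds are replicate 4 of each region: for miR-1298 the amygdala diamond, at 1092 CPM, lies among the raphe values, and for miR-10b-5p the raphe diamond, at 2610 CPM, lies far above the other raphe values.

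Scarcer miRNAs of the stable set that rose in amygdala were miR-7a-2-3p, miR-203a-3p, miR-200a-3p and miR-344b-5p. miR-7a-2-3p, the minor arm of a miR-7 hairpin, stood at 44.5, 82.3, 75.5 and 41.5 CPM in amygdala and 25.5, 26.9, 29.0 and 10.4 CPM in dorsal raphe. The lowest amygdala value was above the highest raphe value (log2 1.38, adjusted p = 0.0153). miR-203a-3p, known as a miRNA of skin epithelium, stood at 94.0, 107, 84.4 and 75.0 CPM in amygdala and 33.4, 29.8, 55.6 and 43.3 CPM in dorsal raphe (log2 1.16, adjusted p = 0.016). miR-200a-3p of the epithelial miR-200 family was scarce, at 7.56, 4.96, 11.5 and 9.77 CPM in amygdala and 2.97, 2.71, 3.72 and 1.60 CPM in dorsal raphe, with dorsal raphe replicate 4 under its 3-count limit. It was 2.9-fold higher in amygdala (adjusted p = 0.0162). Of the 8 tested members of that family, 2 rose and none fell (3 rose without dorsal raphe replicate 4), and the second, miR-429, had under 6 CPM in every library. All 8 tested members of the rodent miR-344 family had positive log2 fold changes (0.39 to 1.12), but 1 of them passed the test, miR-344b-5p at 97.4, 148, 111 and 103 CPM in amygdala and 50.3, 59.9, 52.2 and 48.1 CPM in dorsal raphe. In this family 2 entries, miR-344b-1-3p and miR-344b-2-3p, hold identical counts in the 8 low responder libraries and cannot be read as separate measurements. Without dorsal raphe replicate 4, 4 of the 8 passed, all higher.

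The pair from Aatk, a protein kinase gene of the nervous system, moved in opposite directions. miR-3065-5p stood at 6.88, 11.6, 11.5 and 21.0 CPM in amygdala and 3.90, 2.49, 2.74 and 3.20 CPM in dorsal raphe, higher in every amygdala library (log2 2.04, SE 0.41, adjusted p = 0.0022). miR-338-3p, a miRNA of myelin-forming oligodendrocytes, stood at 456, 629.7, 623 and 1460.0 CPM in amygdala and 2152, 2186, 3163 and 2140.1 CPM in dorsal raphe, lower in every amygdala library (log2 -1.60, SE 0.43, adjusted p = 0.0168). As a share of the miR-338-3p counts, miR-3065-5p came to 1.51%, 1.84%, 1.85% and 1.44% in amygdala and to 0.181%, 0.114%, 0.0866% and 0.150% in dorsal raphe. The 4 values of each region did not overlap, which follows from the levels just given and is not a separate result. Whether the counting used strand is not given in the sources used here, and without it reads of such a pair could be assigned to either miRNA. miR-338-3p lost its call in fits without 1 of several libraries and is not in the stable set, while miR-3065-5p is.

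The list of oligodendrocyte miRNAs, miR-219 and miR-338, had 2 of 5 members lower and none higher (1 lower without dorsal raphe replicate 4), with negative log2 fold changes for all 5 (median -1.14). Summed, the list stood at 6607, 4961, 5117 and 13597 CPM in amygdala and at 13942, 16372, 15876 and 40552 CPM in dorsal raphe. The highest amygdala library, replicate 4, was just below the lowest raphe library. miR-219-2-3p, the abundant strand, was 35332 CPM in dorsal raphe replicate 4 against 7752 to 9763 CPM in the other raphe libraries. Its log2 fold change of -1.63 (adjusted p = 0.0197) became -0.66 without that library (adjusted p = 0.183).

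Among the miRNAs lower in amygdala, miR-653-5p of the calcitonin receptor gene Calcr had the smallest p of all tested. All 4 arms of its 2 hairpins, miR-653 and miR-489, fell, all 4 are in the stable set, and the median log2 fold change was -3.16. miR-653-5p stood at 14.9, 20.4, 9.98 and 7.92 CPM in amygdala and 141, 179, 161 and 269.9 CPM in dorsal raphe. Every amygdala library lay far below every raphe library, and the miRNA was 14.1-fold lower (log2 -3.81, SE 0.35, adjusted p = 1.51e-06). miR-489-3p was scarcer, at 2.98, 3.12, 1.52 and 0.792 CPM in amygdala and 9.99, 12.7, 12.1 and 13.6 CPM in dorsal raphe. The regions again did not overlap (log2 -2.52, SE 0.40, adjusted p = 0.000406). The minor strands miR-653-3p (-3.54, adjusted p = 0.000443) and miR-489-5p (-2.78, adjusted p = 0.00757) fell too, miR-489-5p from a level under 10 CPM in dorsal raphe and with no count in dorsal raphe replicate 4. The amygdala levels of these minor strands, 0.396 to 2.29 CPM, lie near the 3-count limit.

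The 4 arms of miR-296 and miR-298, which lie together in the imprinted Gnas locus, all fell as well (median log2 fold change -2.09), without overlap between regions in any of the 4. miR-298-5p stood at 35.5, 32.0, 21.5 and 31.2 CPM in amygdala and 249, 276, 202 and 188 CPM in dorsal raphe, 7.62-fold lower in amygdala (log2 -2.93, SE 0.36, adjusted p = 3.4e-05). miR-296-5p stood at 13.3, 12.9, 7.59 and 14.4 CPM in amygdala and 52.9, 56.1, 34.6 and 19.2 CPM in dorsal raphe. It had a log2 fold change of -1.77 (adjusted p = 0.0101) and is the 1 arm of the 4 outside the stable set. For miR-298-3p the log2 fold change was -1.54 and for miR-296-3p it was -2.40.

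Within the Hox-cluster list 2 of the 6 tested members fell and none rose, and the median log2 fold change was 0.21. Positive values, none of them called, were those of miR-196a-3p (1.03), miR-196c-3p (0.60) and miR-196a-5p (0.45), and miR-10a-3p had -0.03. miR-10b-5p had the largest difference of all miRNAs tested. It stood at 47.0, 9.0, 6.29 and 8.19 CPM in amygdala and 240.1, 272, 262 and 2610.3 CPM in dorsal raphe. The raphe libraries 1 to 3 were close to each other, replicate 4 was far higher, and in amygdala replicate 1 was above the other 3. The log2 fold change was -5.59 (SE 0.90, adjusted p = 0.000436), -3.79 without dorsal raphe replicate 4 and -6.72 without amygdala replicate 1. miR-10a-5p had a similar pattern in dorsal raphe, at 71.5, 21.7, 46.6 and 16.5 CPM in amygdala and 171, 146, 150.3 and 1314 CPM in dorsal raphe. Its log2 fold change of -3.51 (adjusted p = 0.00209) was -1.90 without dorsal raphe replicate 4, still past the threshold (adjusted p = 0.0043).

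The cluster of miR-183, miR-96 and miR-182, best known from sensory cells of the eye and ear, had 3 of 5 tested members lower, and 2 without dorsal raphe replicate 4. Over all 639 tested 10.5% were lower. The 3p arms had positive log2 fold changes in edgeR and were not called, miR-183-3p with 1.00 (adjusted p = 0.445) and miR-96-3p with 1.86 (adjusted p = 0.242). miR-96-5p stood at 5.73, 3.86, 7.59 and 1.98 CPM in amygdala and 24.8, 55.8, 51.9 and 20.8 CPM in dorsal raphe, with little change on leaving out a raphe library (log2 -3.03, adjusted p = 0.000189, and -3.12 without dorsal raphe replicate 4). miR-183-5p stood at 20.6, 13.2, 24.5 and 7.92 CPM in amygdala and 53.6, 114, 83.6 and 750.5 CPM in dorsal raphe. Every raphe library was higher than every amygdala library, but replicate 4 alone moved the log2 fold change from -2.24 to -3.91 (adjusted p = 0.00144 without it and 0.00127 with it). miR-182 had overlapping regions, at 40.8, 74.8, 84.2 and 12.4 CPM in amygdala and 62.5, 142, 106 and 618 CPM in dorsal raphe, and its call (log2 -2.12, adjusted p = 0.0268) was lost without that library (-0.86, adjusted p = 0.219).

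miR-34a-5p, known to be induced by the p53 protein and the 1 member of its list of 10 to pass the test, was 6.92-fold lower in amygdala. Its levels were 157, 178, 184 and 282 CPM in amygdala and 1340.3, 1711, 2041 and 445 CPM in dorsal raphe. Here dorsal raphe replicate 4 was the lowest of the 4 raphe libraries and still above all amygdala libraries (log2 -2.79, SE 0.55, adjusted p = 0.00209). The miR-135 family, studied for its role in serotonin neurons, had 3 of 4 arms lower, and 2 without dorsal raphe replicate 4. miR-135a-5p stood at 542, 1362, 929.6 and 722 CPM in amygdala and 3189, 3622, 4257 and 1656 CPM in dorsal raphe, without overlap (log2 -1.84, adjusted p = 0.00386). miR-135b-5p, which differs from it at 1 of 23 bases and shares the seed, fell by a log2 fold change of -1.34 (adjusted p = 0.0197). In the cluster of miR-216 and miR-217, known from the pancreas, 3 of 5 tested members fell, and 2 without dorsal raphe replicate 4. miR-217-5p stood at 16.7, 10.8, 9.76 and 9.25 CPM in amygdala and 47.5, 58.3, 31.3 and 135 CPM in dorsal raphe (log2 -2.53, adjusted p = 0.00202, and -1.86 without dorsal raphe replicate 4). miR-216a-5p stood at 5.27, 4.96, 2.82 and 2.38 CPM in amygdala and 18.6, 18.3, 17.8 and 12 CPM in dorsal raphe (log2 -2.13, adjusted p = 0.000809).

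Muscle miRNAs were also lower in amygdala, with 5 of 10 tested members called and a median log2 fold change of -1.46 (4 of 12 called and -0.91 without dorsal raphe replicate 4). For miR-1-3p the levels were 319, 168, 198 and 305 CPM in amygdala and 1125, 1511, 1473 and 4697 CPM in dorsal raphe. Its log2 fold change was -3.15 (SE 0.42, adjusted p = 7.01e-05), or -2.35 without dorsal raphe replicate 4. miR-133a-3p, from the same transcript as miR-1, stood at 22.9, 21.7, 24.1 and 36.1 CPM in amygdala and 169, 229, 236 and 92.9 CPM in dorsal raphe (log2 -2.79, SE 0.36, adjusted p = 4.61e-05). In that miRNA dorsal raphe replicate 4 was the lowest raphe library, whereas for miR-1-3p it was the highest. Summed over the list of 14, the level was 443 to 689 CPM in amygdala and in dorsal raphe 2128 to 2694 CPM in replicates 1 to 3 and 5261 CPM in replicate 4. The vascular list (miR-126, miR-143 and miR-145), which stands for endothelium and smooth muscle, was at 33251 to 41991 CPM in amygdala and in dorsal raphe at 47073 to 59656 CPM in replicates 1 to 3 and 119376 CPM in replicate 4, although none of its 7 members passed the test. The part of vessel cells in the muscle result was not tested.

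Single miRNAs in the stable set were lower in amygdala too. miR-3547, within the Baiap3 gene, stood at 26.8, 20.6, 13.0 and 3.70 CPM in amygdala and 140.4, 95.6, 94.1 and 151 CPM in dorsal raphe, 7.53-fold lower (log2 -2.91, SE 0.48, adjusted p = 0.000476). miR-490-3p, within Chrm2, the gene of a muscarinic acetylcholine receptor, stood at 178, 143, 173 and 140.1 CPM in amygdala and 395, 313, 425 and 661 CPM in dorsal raphe (log2 -1.50, adjusted p = 0.0022). miR-1224, within Vwa5b2, stood at 61.7, 40.6, 39.7 and 35.1 CPM in amygdala and 166, 117, 136 and 223 CPM in dorsal raphe (log2 -1.86, adjusted p = 0.00031). No overlap between regions was seen for any of these 3. miR-185-3p (-1.45) and miR-28-5p (-1.22) had smaller log2 fold changes, with adjusted p = 0.000954 and 0.00455 in edgeR.

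The imprinted Dlk1-Dio3 region carries a large miRNA cluster whose members are known for expression in neurons. Of the 65 tested members between miR-379 and miR-410, 13 fell and none rose, while of all 639 tested 10.5% fell and 3.6% rose. The median log2 fold change was -0.37 against -0.12 for all miRNAs tested. In the stable set were 3 of the 65, miR-134-5p, miR-758-3p and miR-666-5p, all lower, against 4.23% of all tested that were stable and lower. miR-134-5p, known to act in dendrites, stood at 445, 449.6, 370.3 and 322 CPM in amygdala and 1069, 965, 1154 and 2585 CPM in dorsal raphe (log2 -1.86, adjusted p = 0.000691). miR-758-3p stood at 108, 132, 131 and 117 CPM in amygdala and 632, 453, 571 and 258 CPM in dorsal raphe (log2 -1.97, adjusted p = 0.00109). In the first dorsal raphe replicate 4 was the highest raphe library, in the second the lowest, and neither overlapped the amygdala. Without dorsal raphe replicate 4, 5 of 66 tested members of this list were lower and 1 higher, near the 6.18% lower of all tested in that fit (6.49% were higher).

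In the neighbouring Rtl1 antisense group 2 of 9 members fell, miR-433-3p and miR-433-5p, and neither passed without dorsal raphe replicate 4. miR-433-3p stood at 1355, 1016, 1179 and 1076 CPM in amygdala and 2446, 2149, 1812 and 2469 CPM in dorsal raphe (log2 -0.94, adjusted p = 0.021). The abundant miR-127-3p of the same group stood at 39137, 29350.3, 34566 and 24804 CPM in amygdala and 38236, 39197, 47257 and 150425 CPM in dorsal raphe. In replicates 1 to 3 of dorsal raphe it lay close to the amygdala range, and replicate 4 was more than 2-fold higher (log2 -1.11, adjusted p = 0.0622). In the miR-181 family 3 of 10 members fell, all of the 5p strand and of 1 seed (2 without dorsal raphe replicate 4). miR-181c-5p, the 1 in the stable set, stood at 134, 178, 178 and 186 CPM in amygdala and 370.1, 352, 384 and 907 CPM in dorsal raphe (log2 -1.57, adjusted p = 0.00531). miR-181b-5p (-1.01, adjusted p = 0.0197) and miR-181d-5p (-1.03, adjusted p = 0.00774) fell by less, and the most abundant member, miR-181a-5p, had -0.85 (adjusted p = 0.0554).

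**Figure D3:**
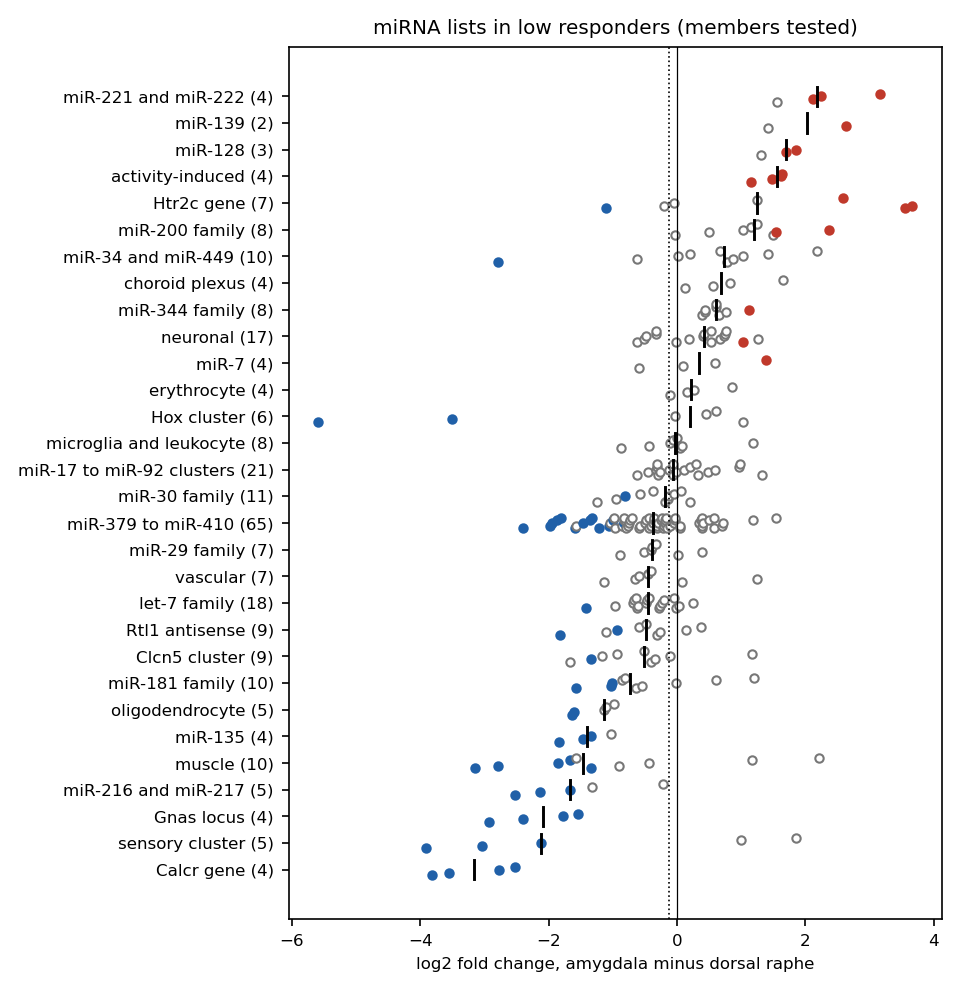
Log2 fold change between amygdala and dorsal raphe in low responders for the tested members of 30 lists of miRNAs, 1 point per miRNA, with filled points for those that passed the test (red higher, blue lower). Black bars are list medians, from -3.16 for the Calcr gene to 2.18 for miR-221 and miR-222, and the dotted line is the median of all miRNAs tested, -0.12.

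Several lists had few or no members past the test. Over all 639 tested 14.1% were called, 10.5% as lower and 3.6% as higher, and most of these lists are too short to be set apart from that share. None passed among the 8 microglia and leukocyte miRNAs (1074 to 1628 CPM summed in amygdala, 1539 to 1672 CPM in dorsal raphe), the 4 erythrocyte miRNAs (109 to 182 CPM in amygdala, and in dorsal raphe 142 to 167 CPM in replicates 1 to 3 and 86.5 CPM in replicate 4), the 7 of the miR-29 family or the 21 of the miR-17 to miR-92 clusters. In the let-7 family 1 of 18 members fell, let-7b-3p, and in the Clcn5 cluster 1 of 9, miR-501-3p; neither passed without dorsal raphe replicate 4. In the miR-30 family 1 of 11 fell, miR-30c-1-3p, and without that library 1 was lower and 1 higher. The list of other neuron-enriched miRNAs leaves out miR-128. Of its 17 tested members 1 rose, or 3 without dorsal raphe replicate 4. The 1 was miR-137-5p at 17.9, 14.7, 17.6 and 11.9 CPM in amygdala and 7.18, 6.33, 7.83 and 9.61 CPM in dorsal raphe (log2 1.02, adjusted p = 0.0344). The most abundant miRNA of all 8 libraries, miR-9a-5p, held 15.6% ± 0.584 of the counts in amygdala and 11.5% ± 1.16 in dorsal raphe (SD, n = 4 each). On the TMM scale its log2 fold change was 0.19 (adjusted p = 0.64), and 0.66 without dorsal raphe replicate 4 (adjusted p = 0.0126).

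How much the calls rest on dorsal raphe replicate 4 differed by direction. Without it 43 miRNAs were higher and 41 lower, out of 663 tested (6.49% and 6.18%). All 23 miRNAs called higher with it were among the 43, whereas of the 67 called lower 41 remained and 26 were lost. It was the highest of the 4 raphe libraries for 42 of the 67 (297 of all 639 tested), and for 23 of the 67 it held more than 2 times the next raphe library (138 of 639). An example among the lost is miR-100-5p, at 9979, 8218, 7813 and 10061 CPM in amygdala and 10998, 10480.0, 12250.2 and 87755 CPM in dorsal raphe. Dorsal raphe replicates 1 to 3 lay just above the amygdala libraries, and the log2 fold change went from -1.75 (adjusted p = 0.0451) to -0.20 without replicate 4 (adjusted p = 0.629). miR-485-5p, another of the lost, stood at 395, 280.4, 277 and 290.5 CPM in amygdala and 623, 477, 490.4 and 4943 CPM in dorsal raphe. Its log2 fold change moved from -2.39 to -0.66 (adjusted p = 0.219).

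Of the 20 miRNAs gained without that library, miR-7a-5p and miR-9a-5p are the most abundant. miR-7a-5p stood at 39591, 37788, 36335 and 19005 CPM in amygdala and 17620.1, 19687, 18144 and 68747 CPM in dorsal raphe. Dorsal raphe replicate 4 was more than 3 times the other raphe libraries, and amygdala replicate 4 lay at their level. The log2 fold change was 0.10 with all libraries (adjusted p = 0.901) and 0.95 without dorsal raphe replicate 4 (adjusted p = 0.00547). Of the 45 miRNAs of the stable set, those whose fold change moved by over 1.5 times when this library was left out were miR-1298, miR-10a-5p, miR-10b-5p, miR-183-5p, miR-1-3p and miR-217-5p. Among all 90 called miRNAs there were 18 such cases for this library and 3 in all for the other 7. Dorsal raphe replicates 1 to 3 were within 2-fold of each other for 82 of the 90 called miRNAs (540 of 639 tested).

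**Figure D4:**
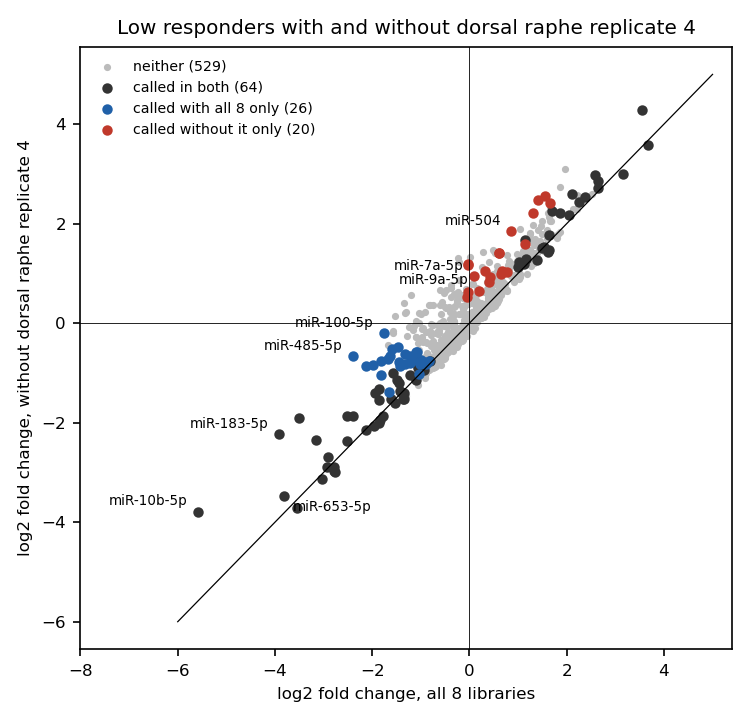
Log2 fold change between amygdala and dorsal raphe in low responders with all 8 libraries (x axis) and without dorsal raphe replicate 4 (y axis), with 1 point per miRNA and the line of equality. Dark points are the 64 miRNAs called in both fits, blue points the 26 called with all 8 libraries and not without that library, all lower in amygdala, and red points those called only without it.

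The called miRNAs were also set out by what links them in sequence and position. Among miRNAs with a sequence, 58 seeds had at least 2 tested members, 144 miRNAs in all. At least 2 miRNAs were called for 6 of these seeds (14.1% of all 639 tested miRNAs were called). In all 6 the called members lay in 1 direction. Those higher were miR-132-3p with miR-212-3p and miR-221-3p with miR-222-3p, and each of these pairs comes from 1 transcript. Those lower were miR-181b-5p, miR-181c-5p and miR-181d-5p, miR-135a-5p with miR-135b-5p, miR-1-3p with miR-206-3p, and miR-133a-3p with miR-133b-3p. miR-181b-5p and miR-206-3p lost their calls without dorsal raphe replicate 4. miR-133a-3p and miR-133b-3p differ at 1 of 22 bases, and miR-135a-5p and miR-135b-5p as well as miR-181b-5p and miR-181d-5p at 1 of 23, so the counts within each of these pairs may not be independent. For 222 hairpins both arms were tested, and the arms had the same sign in 162. In the 16 hairpins with both arms called the sign was the same in all 16, and in the 39 with 1 arm called it was the same in 32. The median GC content of the mature sequence was 47.7% for those higher, 50.0% for those lower and 47.6% for all with a sequence. Fold changes also went with abundance: the median log2 fold change was 0.78 for the 157 miRNAs of mean level under 4 CPM, 0.08 for the 81 between 4 and 10 CPM and -0.35 for the 401 of at least 10 CPM.

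The same region contrast in high responders, with 4 libraries a side of its own, called 84 of the 639 miRNAs (13.1%), 42 in each direction (6.57% each). High responder amygdala replicate 1 held 1741167 counts, and its root mean square deviation from its group mean was 0.968 on the log2 scale. For high responder amygdala replicate 4 the deviation was 0.880. No fit of this contrast left out a high responder library, so the part of these libraries in the values below was not tested. Of the 23 miRNAs higher in low responders 22 had the same sign there and 14 were called. Of the 67 lower, 57 had the same sign and 24 were called. All 45 of the stable set had the same sign and 29 were called, whereas of the 26 lost without dorsal raphe replicate 4, 17 had the same sign and 2 were called. The difference itself, tested as the interaction of line and region, was past the threshold for none of the 639 miRNAs in edgeR (0% called; 81 had an unadjusted p under 0.05), by limma-voom it was past it for none either, and DESeq2 called 22.

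Beside the low responder values above, the high responder log2 fold changes were -3.63 for miR-653-5p, 2.48 for miR-222-3p, 2.81 for miR-139-5p, 4.45 for miR-1298 and -3.51 for miR-34a-5p, all past the threshold. Choroid plexus miRNAs also differed in high responders, where 3 of the 4 arms of miR-204 and miR-211 were called higher and none lower. On the log2 scale the median of these 4 was 2.34, against 0.69 in low responders, where none was called. The part of choroid plexus cells in the miR-1298 value was not tested. miR-10b-5p had -3.02 in high responders (adjusted p = 0.016), nearer to its value without dorsal raphe replicate 4 than to its value with it. miR-10a-5p (-1.12, adjusted p = 0.248) and miR-183-5p (-1.77, adjusted p = 0.1) were not called in high responders. miR-298-5p and miR-3547 had smaller values in high responders (-2.08 and -1.74), with interaction adjusted p = 0.469 and 0.452 in edgeR. A single miRNA called higher in low responders had the opposite sign in high responders, miR-3593-5p. It stood at 582, 453, 476 and 237 CPM in amygdala and 185, 205, 136 and 42.5 CPM in dorsal raphe in low responders (log2 1.61, adjusted p = 0.028) and had -0.48 in high responders (adjusted p = 0.486, interaction adjusted p = 0.202).

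**Figure D5:**
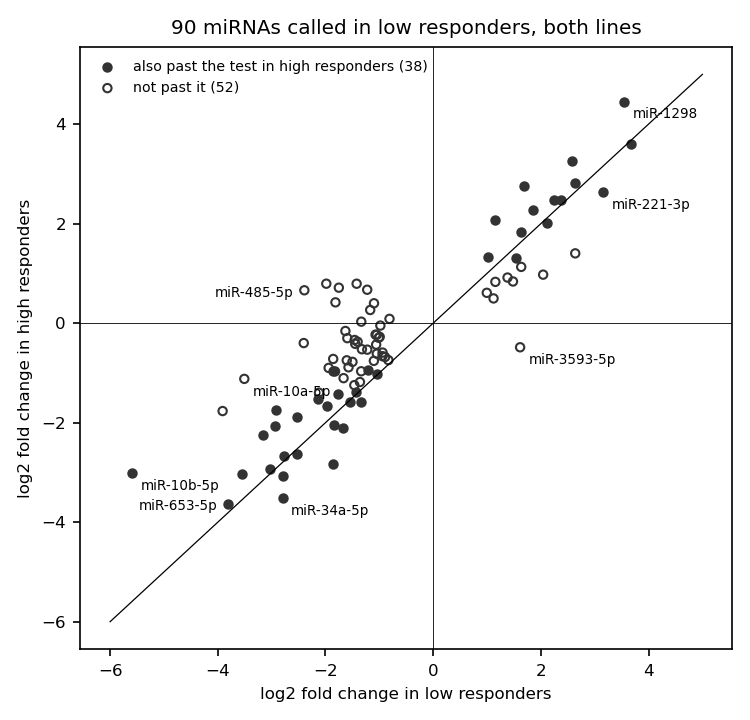
Log2 fold change between amygdala and dorsal raphe in low responders (x axis) and in high responders (y axis) for the 90 miRNAs called in low responders, with the line of equality. Filled points are also past the test in high responders, and miR-3593-5p is the 1 point to the right of 0 on the x axis that lies below 0 on the y axis.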

How the data were processed

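The tissue RNA was extracted with a miRNeasy kit, per the labels' protocols, and small RNA libraries were made by Illumina's protocol and size-selected on a Pippin instrument. The submitters' processing notes list the tools cutadapt 1.3.1, bedtools 2.14.2 and Bowtie2, the last with no version. Which genome build and annotation were used, and how reads with several matches were counted, is not given in the sources used here; no coordinates are printed. The deposited values are whole read counts per mature miRNA, 1 table of 722 miRNAs per library, not normalised. No library was a copy of another: chi-square per degree of freedom was at least 78.9 in each of the 28 pairs.

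The low count filter was filterByExpr of edgeR with a minimum count of 10 and a minimum total of 15, and it dropped 83 miRNAs with at most 0.0126% of a library's counts. Differences were tested with edgeR 4.0.16 (R 4.3.3) by the robust quasi-likelihood test with TMM scaling, in 1 model of 4 group means over all 16 libraries, so that the high responder libraries share the estimate of spread. Benjamini-Hochberg adjustment ran over the 639 miRNAs kept, and an adjusted p under 0.05 counts as called. The biological coefficient of variation was 0.426. Alternatives, whose effect the closing section gives, were other scalings and filters, DESeq2 1.42.0, voom of limma 3.58.1, the 8 low responder libraries alone, a replicate block and leaving out libraries. On simulated counts of 614 miRNAs the test found 7.69%, 26.6% and 87.5% of the 1.5-fold, 2-fold and 4-fold changes, and 3 of its 81 calls were unchanged miRNAs. The simulation held no library with a profile that stands apart like that of dorsal raphe replicate 4, so these rates do not cover its part in the calls.

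Lists and host genes were set from background knowledge and RefSeq, and the members and lists were chosen with earlier results of these data known. The miRNAs named by rule are the 12 higher and 12 lower of largest change and the 8 most abundant of the called miRNAs that average 10 CPM or more, the 10 most abundant miRNAs, and the 2 of lowest p in each of the 30 lists; others were chosen after their values were seen.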

Additional observations from a re-analysis of the deposited data

Results flagged for a closer look

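In groups of 4 libraries, a library was marked where its gap to the nearest of the others, as a share of the group's range, passed Dixon's 95% critical value. For 154 groups of 4, the number checked (77 named miRNAs in both regions), the nominal rate gives about 7.7 marks. That rate holds for groups not chosen from these data, and the named miRNAs were chosen from them, so it does not measure chance here. In all 26 marks were found, 20 of them in dorsal raphe replicate 4. There it was far above the other raphe libraries for miR-143-3p (105322 CPM), miR-127-3p (150425), miR-100-5p (87755), let-7f-5p (73001), miR-7a-5p (68747), miR-219-2-3p (35332), miR-7b (13932), miR-532-5p (3785), miR-10b-5p (2610.3), miR-10a-5p (1314), miR-181c-5p (907), miR-30c-2-3p (767), miR-221-5p (149), miR-135a-3p (131), miR-501-3p (26.4) and miR-128-1-5p (8.01). It was far below them for miR-26a-5p (32120.5), miR-132-5p (311), miR-216a-5p (12) and miR-7a-2-3p (10.4). Amygdala replicate 4 was marked for miR-7a-5p (19005) and miR-7b (2532), both low, and for miR-181b-5p (5797), high. Amygdala replicate 1 was marked low for miR-99a-5p (21168) and miR-181c-5p (134), and dorsal raphe replicate 3 high for miR-338-3p (3163). Marks in 1 library are not independent, since they share its depth and scaling, whose part in them was not tested.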

How the results depend on the processing

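With all 8 libraries and TMM scaling 90 miRNAs were called, 23 higher and 67 lower in amygdala. Other scalings, filters and tools gave 81 to 109 calls. A mean of at least 10 CPM gave 38 higher and 43 lower, DESeq2 109 calls with 40 higher and 69 lower, and the 8 low responder libraries alone 64 calls with 29 higher and 35 lower. With library totals in place of TMM the median log2 fold change of all tested went from -0.12 to 0.02 and the split from 25.6% higher to 38.6% higher (34 and 54). RLE size factors gave 34.9% higher (30 and 56). Leaving out 1 library at a time gave 47 to 84 calls, 19 to 43 higher and 28 to 56 lower. The lowest, 47 calls, came without amygdala replicate 3, and without amygdala replicate 2 33 were lower. Without replicate 4 of both regions 110 were called, 38 higher and 72 lower. In a fit chosen after seeing the data, of the low responder libraries alone without dorsal raphe replicate 4, 173 were called, 93 higher and 80 lower; the cause was not tested. The interaction of line and region had 0 calls, 22 with DESeq2, 1 without the low count filter and 0 to 1 on leaving out a library (1 without dorsal raphe replicate 1). No pairing of the regions by the numbers 1 to 4 was seen. Correlations of same-numbered deviations were -0.293, -0.0009, 0.159 and -0.285, and no same-numbered pair was the best match in both directions. With 4 libraries a region, these values cannot exclude that a number stands for the same rat. With the replicate block within line 86 were called, 32 higher and 54 lower, of which 70 were shared with the main result. Directions of the 77 named miRNAs held in all settings that kept dorsal raphe replicate 4. Without it let-7f-5p (log2 fold change 0.31), miR-7b (0.37) and, with amygdala replicate 4 also left out, let-7f-5p (0.18), miR-7b (0.39) and miR-26a-5p (-0.25) changed sign, as did let-7f-5p (0.35), miR-7b (0.42) and let-7i-5p (0.036) in the fit chosen after seeing the data. None of these was past the threshold, and on leaving out 1 library at a time the log2 fold change ran from 0.007 to 0.29 for miR-26a-5p, from -0.57 to 0.31 for let-7f-5p and from -0.71 to 0.37 for miR-7b. miR-1298 missed it under the replicate block (log2 3.33, adjusted p = 0.0603), and miR-448-3p under the block (2.11, adjusted p = 0.135) and limma-voom (1.82, adjusted p = 0.106). On simulated counts with the depth, number of libraries and spread of each miRNA of these data, changes of 2-fold were mostly missed (26.6% found). These settings were not varied. The counts were drawn independently for each miRNA, and no simulated library had a profile that stood apart as that of dorsal raphe replicate 4 does. The rates found therefore do not cover the part of such a library.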

Other observations

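Other miRNAs differed in low responders outside the groups described, and these were picked after their values were seen. miR-3557-3p, within the Ppargc1b gene and with a run of 22 bases complementary to miR-378a-5p, stood at 4.81, 3.31, 3.25 and 1.45 CPM in amygdala and 0.312, 0.678, 0.391 and 0.801 CPM in dorsal raphe (log2 2.64, adjusted p = 0.036 in edgeR), while miR-378a-5p had 0.15 (adjusted p = 0.845). Its levels are near or under the 3-count limit in dorsal raphe. miR-551b-3p, within Egfem1, stood at 59.8, 48.0, 50.5 and 27.3 CPM in amygdala and 25.8, 16.1, 26.4 and 24.8 CPM in dorsal raphe and was 1.99-fold higher in amygdala (adjusted p = 0.0304). Both arms of miR-330, within Eml2, were lower in amygdala, miR-330-5p at 1104, 1343, 1419.9 and 1599.9 CPM in amygdala and 2751, 2535, 3254 and 1962 CPM in dorsal raphe (log2 -0.94, adjusted p = 0.0213) and miR-330-3p with -1.05 (adjusted p = 0.0346). miR-702-3p stood at 72.7, 67.8, 75.3 and 70.4 CPM in amygdala and 242, 199, 153 and 180.2 CPM in dorsal raphe, with the regions well apart (log2 -1.44, adjusted p = 0.0168).

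miR-7a-2-3p and miR-7a-5p, arms of the miR-7 family, did not keep a fixed ratio in replicate 4 of dorsal raphe. There the first came to 0.0151% of the counts of the second, against 0.144%, 0.137% and 0.160% in raphe replicates 1 to 3 and 0.112% to 0.218% in amygdala. miR-211-5p, by contrast, came to 3.01% to 4.60% of miR-204-5p in amygdala and 3.37% to 4.77% in dorsal raphe, replicate 4 included. For 3 pairs of entries, the 3p arms of miR-129-1 and miR-129-2, the 3p arms of miR-344b-1 and miR-344b-2, and the 5p arms of miR-664-1 and miR-664-2, the files hold identical counts in each of the 8 low responder libraries.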
